A study of Mus musculus with 9 samples.

Results

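The genes described here encode the proteins of the cytosolic ribosome, and they were followed across the murine colon carcinoma line MC38 and its liver-metastatic derivatives. Every gene whose symbol starts with Rps or Rpl followed by a digit was taken, which gave 99 of the 16399 listed genes, and 92 of them reached at least 1 TPM (transcript abundance scaled to the library total, a level per transcript length) in at least 3 libraries. Poly(A) RNA of cultured cells was sequenced in 3 biological replicates of each of 3 groups, 9 libraries in all. MC38-P is the parental line, which carries GFP and luciferase. MC38-LM3a and MC38-LM3b are derivatives obtained after 3 rounds of injection into the spleen of immunocompetent C57BL/6 mice, recovery of cells from the liver metastases and expansion in culture. The study calls them independently derived and names a single population for each of the earlier rounds, and at which round they parted is not given in the sources used here. All groups therefore share the reporter, and each derivative is a single population obtained by that selection. The comparison asked which of these genes differ between parental cells and cells selected for liver metastasis.

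The cytosolic ribosome joins a small 40S subunit, which reads the mRNA, to a large 60S subunit, which forms the peptide bond. Each subunit needs its proteins in near-equal amounts, and most of their mRNAs begin with a tract of pyrimidines, the TOP tract, through which mTORC1 and the RNA-binding protein Larp1 control their translation together. In colon carcinoma, ribosome production is known to rise with Myc activity and growth.

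The label was checked against the members. Of the 92 kept matches, 73 are core ribosomal protein genes (30 of the 40S and 43 of the 60S subunit), 6 are paralogs or retrogene copies of core genes, 3 are annotated pseudogenes or retrocopies and 10 encode no ribosomal protein. The last are kinases and a binding protein whose symbols share the letters. Genes of the ribosome that the symbol pattern leaves out are given separately (Rpsa, Rplp0, Rplp1, Rplp2, Fau and Rack1). At the threshold, Rpl13-ps6 was kept with TPM from 0 to 1.79, and Rpl34-ps1 was left out with 1.25, 0.85 and 1.06 TPM in MC38-P and 0 in all derivative libraries. Ribosomal protein genes have many near-identical processed copies in the mouse genome, and how the authors divided reads between copies is not given in the sources used here, so the levels of a gene with such a copy are uncertain.

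The files hold TPM and no counts, so sequencing depth is unknown. Between 10875 and 11218 genes reached 1 TPM per library. The cells are labelled epithelial: 6 of 11 epithelial markers were kept, led by Krt8 and Krt18, while Cdh1 was at or below 0.08 TPM in every library. Summed hepatocyte markers stayed at or below 4.33 TPM, T cell markers at or below 0.3 TPM and endothelial markers at or below 2.07 TPM. The macrophage list reached 45.61 TPM through Cd68, with Ptprc at or below 0.09 TPM, and the stellate and fibroblast list, of which 3 of 7 markers were kept, summed to 135.44 to 172.46 TPM in MC38-P against 54.07 to 72.66 TPM in the derivatives. Within it Pdgfrb went the other way, with 1.15 to 1.74 TPM in MC38-P and 3.48 to 3.80 TPM in MC38-LM3b. The epithelial sum was also lower in all derivative libraries (1584.85 to 1812.15 TPM, against 2003.93 to 2318.5 TPM in MC38-P), carried by Krt8 and Krt18 while Krt19 was higher in MC38-LM3a (135.74 to 156.89 TPM, against 105.08 to 121.84 TPM), and the macrophage sum higher (34.27 to 45.61 TPM, against 27.84 to 29.66 TPM). These lists thus moved with the comparison, and their part in the results was not tested. A pair of libraries stood apart from their own groups along transcript length, and the ribosomal protein genes are short (median transcript length 774 bases, against 2696 over the 11287 tested genes). In MC38-P replicate 3 the difference from the other replicates of its group fell with length (Spearman's rho -0.63 across genes, which are not independent), and in MC38-LM3a replicate 3 it rose with length (rho 0.66). The remaining replicates, compared with groups that hold these libraries, gave the opposite sign (0.51 and 0.43 in MC38-P, -0.55 and -0.53 in MC38-LM3a), and no MC38-LM3b library passed 0.03 in size. This measure compares a library with its own group only. Between groups the fold change of all genes also followed length. Its rho was -0.12 for MC38-LM3a against MC38-P, 0.23 for MC38-LM3b against MC38-P and 0.62 for MC38-LM3b against MC38-LM3a. The core genes were shifted by a median of 0.19 on the log2 scale in MC38-P replicate 3 and by -0.29 in MC38-LM3a replicate 3. The share of TPM and the counts of core genes called are given with and without these libraries. Leaving out both together was chosen after seeing the data. Counts of the paralogs, pseudogenes, non-ribosomal matches and other lists are given with all libraries only.

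The 92 genes took a large share of all TPM. In MC38-P they made up 20.2%, 21.0% and 23.9% of the TPM in replicates 1, 2 and 3, with a mean of 21.7% ± 1.91 (SD, n = 3). In MC38-LM3a the shares were 22.7%, 23.0% and 18.7%, with a mean of 21.5% ± 2.38 (SD, n = 3), and in MC38-LM3b they were 17.7%, 17.9% and 18.0%, with a mean of 17.9% ± 0.149 (SD, n = 3). All MC38-LM3b libraries lay below all others, and the MC38-LM3a and MC38-P libraries overlapped. The share differed by -3.86 percentage points in MC38-LM3b from MC38-P (exact permutation test, two-sided p = 0.1, the smallest that 3 against 3 allows; 0.2 adjusted over 4 comparisons), and by -0.262 points in MC38-LM3a (exact p = 1). Without the 2 libraries that stood apart, MC38-LM3a lay 2.19 points above MC38-P. These were the highest library of MC38-P and the lowest of MC38-LM3a, so their removal raises this difference by itself. When each library was corrected for the GC content and length of its transcripts, the mean was 21.3% ± 0.451 for MC38-P, 20.5% ± 0.653 for MC38-LM3a and 19.1% ± 0.108 for MC38-LM3b (SD, n = 3), which left MC38-LM3b at -2.15 points from MC38-P. The 78 kept genes of the mitochondrial ribosome, a separate machine inside mitochondria, took 0.752%, 0.714% and 0.655% of the TPM in the same order.

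**Figure D1:**
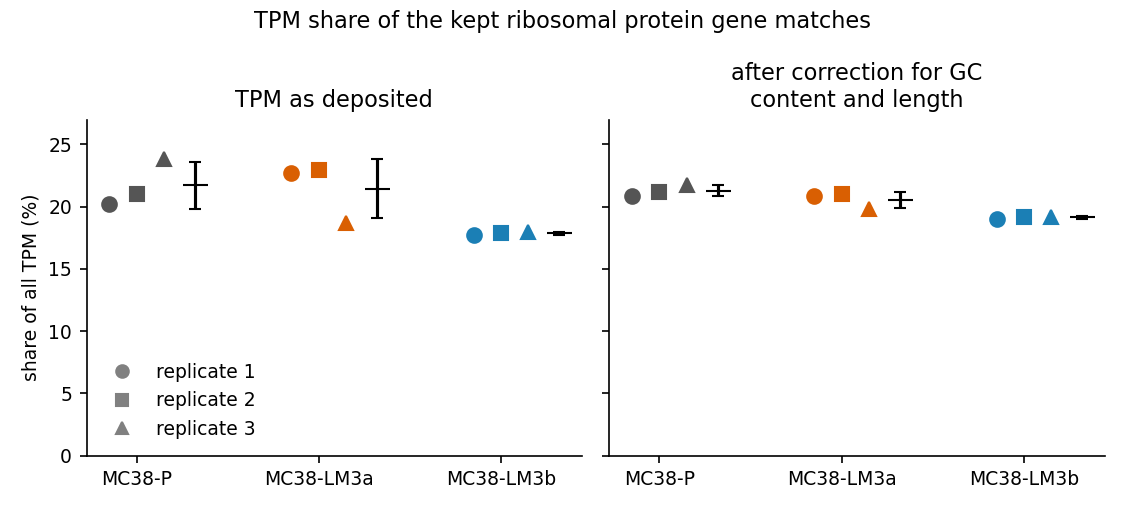
Share of all TPM (%, vertical axis) taken by the 92 kept genes in each of the 9 libraries by group, as deposited (left) and corrected for GC and length (right). Symbols mark the replicates, and the horizontal mark with bars is the mean ± SD of 3 libraries. Replicate 3 lies highest in MC38-P and lowest in MC38-LM3a on both scales, and the MC38-LM3b libraries lie between 17.7% and 18.0% as deposited.

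The core genes differed widely in level. Rpl23a of the 60S subunit, which sits near the exit of the peptide tunnel, was the most abundant, from 7243 to 10001 TPM, followed by Rps2 (5694 to 8855 TPM), Rps27 (4802 to 6351 TPM), Rpl7a (4498 to 6640 TPM) and Rpl41 (4374 to 6849 TPM). Each of these overlapped the next in range over the 9 libraries. Within every library, however, Rpl23a lay above Rps2, and Rps2 above Rps27, Rpl7a and Rpl41, whose order changed between libraries. The lowest were Rps15a (74.7 to 98.2 TPM), Rpl22 (156 to 198 TPM), Rps20 (181 to 283 TPM), Rpl21 (474 to 594 TPM) and Rpl37 (444 to 898 TPM). The ranges of Rpl22 and Rps20 overlapped, though Rps20 lay higher within every library, and those of Rpl21 and Rpl37 overlapped too. The copy Rps15a-ps5 held 323 to 517 TPM, above its parent gene Rps15a in every library, so these levels are uncertain. Rps15a-ps5 took 84.5% ± 0.409 of the TPM of the pair in MC38-P, with 83.4% ± 0.304 for MC38-LM3a and 80.3% ± 0.908 for MC38-LM3b (SD, n = 3).

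The balance of the subunits moved little. The log2 ratio of summed 60S to 40S TPM was 0.30 ± 0.01 in the parental cells. It was 0.27 ± 0.01 for MC38-LM3a and 0.28 ± 0.003 for MC38-LM3b (SD, n = 3). Over the 6 derivative libraries it differed by -0.02 from MC38-P (exact permutation p = 0.0476, 0.19 adjusted over 4 comparisons), and it turned in direction for MC38-LM3b when medians replaced sums. The libraries of a line are cultures of a single population, so this p covers the spread between cultures and not between separate selections.

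Gene by gene, limma was fitted to log2(TPM + 1) of all 11287 tested genes, with Benjamini-Hochberg adjustment over all of them, and a gene was called at an adjusted p under 0.05. All fold changes are on the log2(TPM + 1) scale. Between MC38-LM3a and MC38-P, 4 of the 73 core genes fell and 0 rose, where 28% of all tested genes were called (13.8% lower and 14.1% higher). A further 2 core genes had an unadjusted p under 0.05. The median core gene moved by 0.00, as did the median of all genes. Those that fell were Rpl8, Rpl30, Rpl37 and Rpl7a, all of the 60S subunit, and the Rpl7a call was lost under 9 of 20 alternatives. The count rested on the libraries that stood apart: without MC38-LM3a replicate 3, 14 core genes rose and 4 fell, with 37.4% of all genes called, and without MC38-P replicate 3 as well, 48 rose and 4 fell, with 63.6% of all genes called and a core median of 0.17 against -0.14 for all genes. In core level these libraries were the lowest of MC38-LM3a and the highest of MC38-P. Leaving them out therefore raises the core genes of MC38-LM3a by itself, and it was chosen after seeing the data.

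Between MC38-LM3b and MC38-P, 37 core genes fell (15 of the 40S and 22 of the 60S subunit) and 0 rose, where 46.7% of all genes were called, 11.2% lower and 35.6% higher. The median core gene fell by 0.24 while the median of all genes rose by 0.21, so the family stood at -0.45 relative to the bulk of genes. The largest falls outside chromosome 15 were those of Rpl36 (-0.50, SE 0.11), Rps12 (-0.44, SE 0.08) and Rpl7a (-0.43, SE 0.06). Rps2, which lies at the mRNA entry of the 40S subunit, fell by 0.41 (SE 0.11). Rpl23a fell by 0.27 (SE 0.08), a call lost under 5 of 20 alternatives. The correction for GC content and length left the core median at -0.24 with the median of all genes at 0.01, and quantile normalization brought it to -0.07. Without MC38-P replicate 3, 18 core genes were called, as without MC38-LM3b replicate 1 or replicate 2, with 33.0% to 36.8% of all genes called.

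Between the derivatives, 0 core genes were called by limma, where 0.0532% of all genes were, while 52 of the 73 (and 4296 of the 11287 tested genes) had an unadjusted p under 0.05 and the median core gene stood at -0.24 in MC38-LM3b relative to MC38-LM3a. The median of all genes stood at 0.21 in this comparison. With the correction for GC content and length, the core median was -0.19 and that of all genes -0.004. Without MC38-LM3a replicate 3, 67 core genes were lower in MC38-LM3b, with 56.4% of all genes called, and without MC38-P replicate 3 as well, 70 were, with 71.7% of all genes called.

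The subunit genes that moved apart from their family were led by 3 of the 4 core genes on chromosome 15. Rpl8, whose protein lies close to the peptidyl transferase centre, stood at 3683, 4214 and 4479 TPM in MC38-P, at 2788, 2767 and 2381 TPM in MC38-LM3a and at 2222, 2192 and 2297 TPM in MC38-LM3b. All 6 derivative libraries lay below all 3 parental ones. Rpl8 fell by 0.64 (SE 0.08, limma adjusted p = 0.000264) in MC38-LM3a and by 0.88 (SE 0.08, adjusted p = 2.51e-05) in MC38-LM3b, and these calls held under all 20 alternatives.

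Rpl30, a small protein at the interface of the subunits, was at 4624, 4321 and 5069 TPM in MC38-P, at 3378, 3196 and 3043 TPM in MC38-LM3a and at 2627, 2733 and 2686 TPM in MC38-LM3b. The 3 groups did not overlap. The fall was 0.54 (SE 0.07, limma adjusted p = 0.000197) in MC38-LM3a and 0.80 (SE 0.07, adjusted p = 1.1e-05) in MC38-LM3b.

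Rpl37, a zinc-finger protein of the 60S subunit, was at 766, 809 and 898 TPM in MC38-P, at 616, 644 and 444 TPM in MC38-LM3a and at 558, 554 and 542 TPM in MC38-LM3b. The derivatives overlapped each other and lay below MC38-P. The fall was 0.55 (SE 0.12, limma adjusted p = 0.00624) and 0.58 (SE 0.12, adjusted p = 0.00336).

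Rpl3, the fourth core gene on this chromosome and a large protein of the peptidyl transferase centre, was at 2382, 2717 and 2975 TPM in MC38-P, at 2517, 2481 and 2186 TPM in MC38-LM3a and at 2093, 2102 and 2116 TPM in MC38-LM3b. MC38-LM3a overlapped MC38-P, and its difference of -0.17 (SE 0.08, limma adjusted p = 0.164) did not pass. In MC38-LM3b, Rpl3 fell by 0.35 (SE 0.08, limma adjusted p = 0.00604), below the median (-0.24) and the lower quartile (-0.29) of the core genes. The 464 tested genes of chromosome 15 had medians of -0.53 and -0.31 in the respective derivatives (-0.51 and -0.50 after the GC and length correction), against -0.55 and -0.69 for the 4 core genes (-0.64 and -0.71 with that correction). On the other chromosomes the core genes had medians of 0.01 and -0.23 (69 genes).

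**Figure D2:**
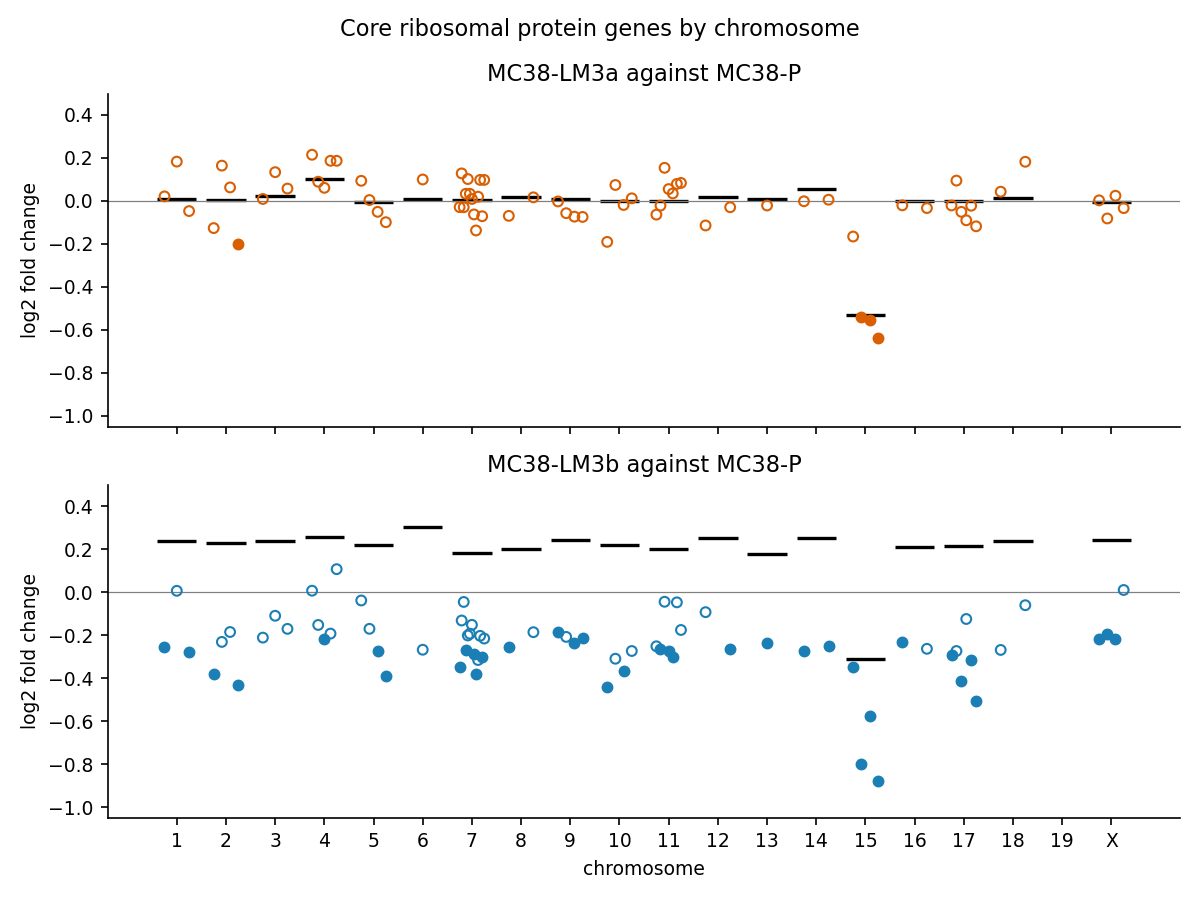
Log2 fold change against MC38-P (vertical axis) of the 73 core genes by chromosome (horizontal axis), for MC38-LM3a (top) and MC38-LM3b (bottom). Filled points passed limma at an adjusted p under 0.05, open points did not, and black bars mark the median of all tested genes of that chromosome. On chromosome 15, 3 of 4 core genes lie at or below -0.54 in both panels, and the other core genes lie near 0 in MC38-LM3a and mostly below it in MC38-LM3b.

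**Figure D3:**
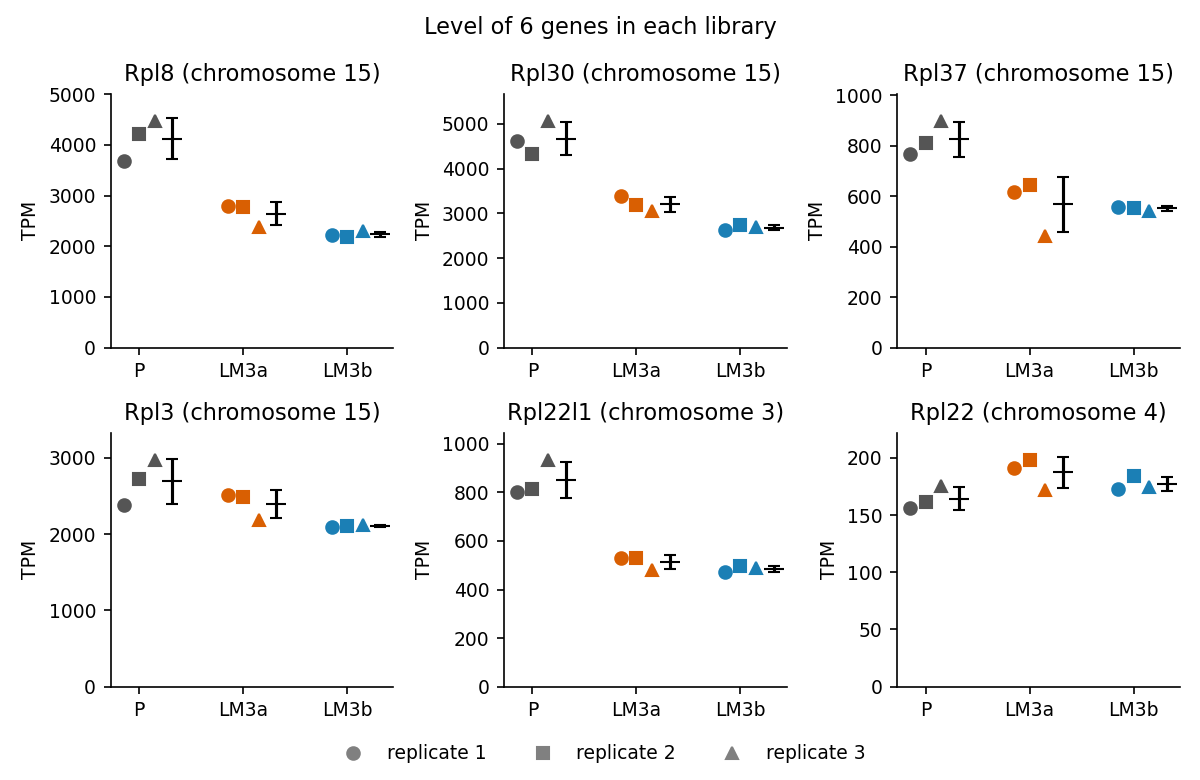
TPM (vertical axis, from 0) of 6 genes in the 9 libraries, by group (P, LM3a and LM3b stand for the MC38 lines). Symbols mark replicates, and the horizontal mark with bars is the mean ± SD of 3 libraries. Rpl8, Rpl30, Rpl37 and Rpl22l1 lie lower in all 6 derivative libraries than in MC38-P, whereas MC38-LM3a overlaps MC38-P for Rpl3 and all groups overlap for Rpl22.

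To separate single subunits from a shift of the whole family, the median log2(TPM + 1) of the 73 core genes was subtracted in each library and the same limma fit was run. In this sense a departure is a gene's difference beyond that of the family's median level. The median level and the median gene did not move alike. The median core gene itself departed by 0.06 in MC38-LM3a and by 0.05 in MC38-LM3b. Upward departures include this offset, and downward ones are smaller by it. In MC38-LM3a, 3 core genes departed downwards (Rpl8, Rpl37 and Rpl30) and 3 upwards (Rpl37a, Rpl17 and Rpl12), where 8.12% of all genes did either (3.43% downwards and 4.7% upwards). In MC38-LM3b, 5 departed downwards (Rpl8, Rpl30, Rpl37, Rpl36 and Rps12) and 11 upwards, where 51.5% of all genes did either (2.2% downwards and 49.3% upwards), since the median of all genes lay above the family there. The balance of up and down depends on the centring: quantile normalization gave 5 upwards and 11 downwards, and centring on the median of the core genes' deviations 7 and 11. Between the derivatives 0 core genes departed by limma, where 0.0266% of all genes did, with 10 of the 73 at an unadjusted p under 0.05, beside 6198 of the 11287 tested genes. Without the 2 libraries that stood apart, 19 departed upwards and 7 downwards in MC38-LM3a, where 59.9% of all genes departed.

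The largest departures were downward, those of Rpl8 and Rpl30 in both derivatives and of Rpl37 in MC38-LM3a. Rpl8 gave a departure of -0.59 in both derivatives (SE 0.05, limma adjusted p = 3.64e-06 for MC38-LM3a, 2.38e-06 for MC38-LM3b), and Rpl30 gave -0.49 and -0.51 (SE 0.07, adjusted p = 0.000357 and 0.000126). Rpl37 gave -0.50 in MC38-LM3a (SE 0.09, adjusted p = 0.00253) and -0.29 in MC38-LM3b (SE 0.09, adjusted p = 0.0181), and the latter call was lost when any 1 MC38-LM3b library was left out. Rps12, which has a known role in cell competition in flies, gave -0.14 and -0.15, of which the second passed (limma adjusted p = 0.0341), and that call was lost under 9 of 24 alternatives. Rpl7a gave -0.15 and -0.14 with limma adjusted p of 0.153 and 0.0543, and these were called under 4 and 9 of 24 alternatives.

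Upward departures reached 0.40 in MC38-LM3b. Rpl22, an RNA-binding protein on the outer face of the 60S subunit, was at 156, 161 and 176 TPM in MC38-P, at 191, 198 and 172 TPM in MC38-LM3a and at 173, 184 and 174 TPM in MC38-LM3b. The groups overlap in TPM, and it lay 0.24 (SE 0.11, limma adjusted p = 0.24) and 0.40 (SE 0.11, adjusted p = 0.0121) above the family. Rpl37a, a second zinc-finger protein of the large subunit, lay 0.24 (SE 0.07, adjusted p = 0.0495) and 0.30 (SE 0.07, adjusted p = 0.0048) above it, and Rpl17, which lines the peptide exit tunnel, 0.24 (SE 0.06, adjusted p = 0.0282) and 0.23 (SE 0.06, adjusted p = 0.00964). The Rpl37a call in MC38-LM3a was lost under 18 of 24 alternatives and the Rpl17 call there under 10, whereas in MC38-LM3b the calls of Rpl22, Rpl37a and Rpl17 were each lost under 2. Rps20, a 40S head protein, gave 0.27 (limma adjusted p = 0.193) and 0.30 (adjusted p = 0.0441), a call lost under 13 of 24 alternatives. Rpl23, one of the proteins that bind Mdm2, gave 0.21 (limma adjusted p = 0.0857) and 0.24 (adjusted p = 0.0122), a call lost under 4 of 24.

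Between the derivatives the differences were largest for Rpl39, a very small protein of the exit tunnel, which gave 0.28 relative to the family (limma adjusted p = 0.0764, not called), for Rps29 with 0.26 and for Rps15a with 0.22. Against MC38-P, Rpl39 departed by 0.02 in MC38-LM3a (not called) and by 0.30 in MC38-LM3b (called). Counted without a test, the 6 derivative libraries all lay below the 3 parental ones in TPM for 4 core genes (Rpl8, Rpl30, Rpl37 and Rpl7a; 12.3% of all genes did) and above them for 0 (19.1% of all genes). Relative to the family they all lay below for 5 (3.37% of all genes) and above for 12 (12.8% of all genes).

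**Figure D4:**
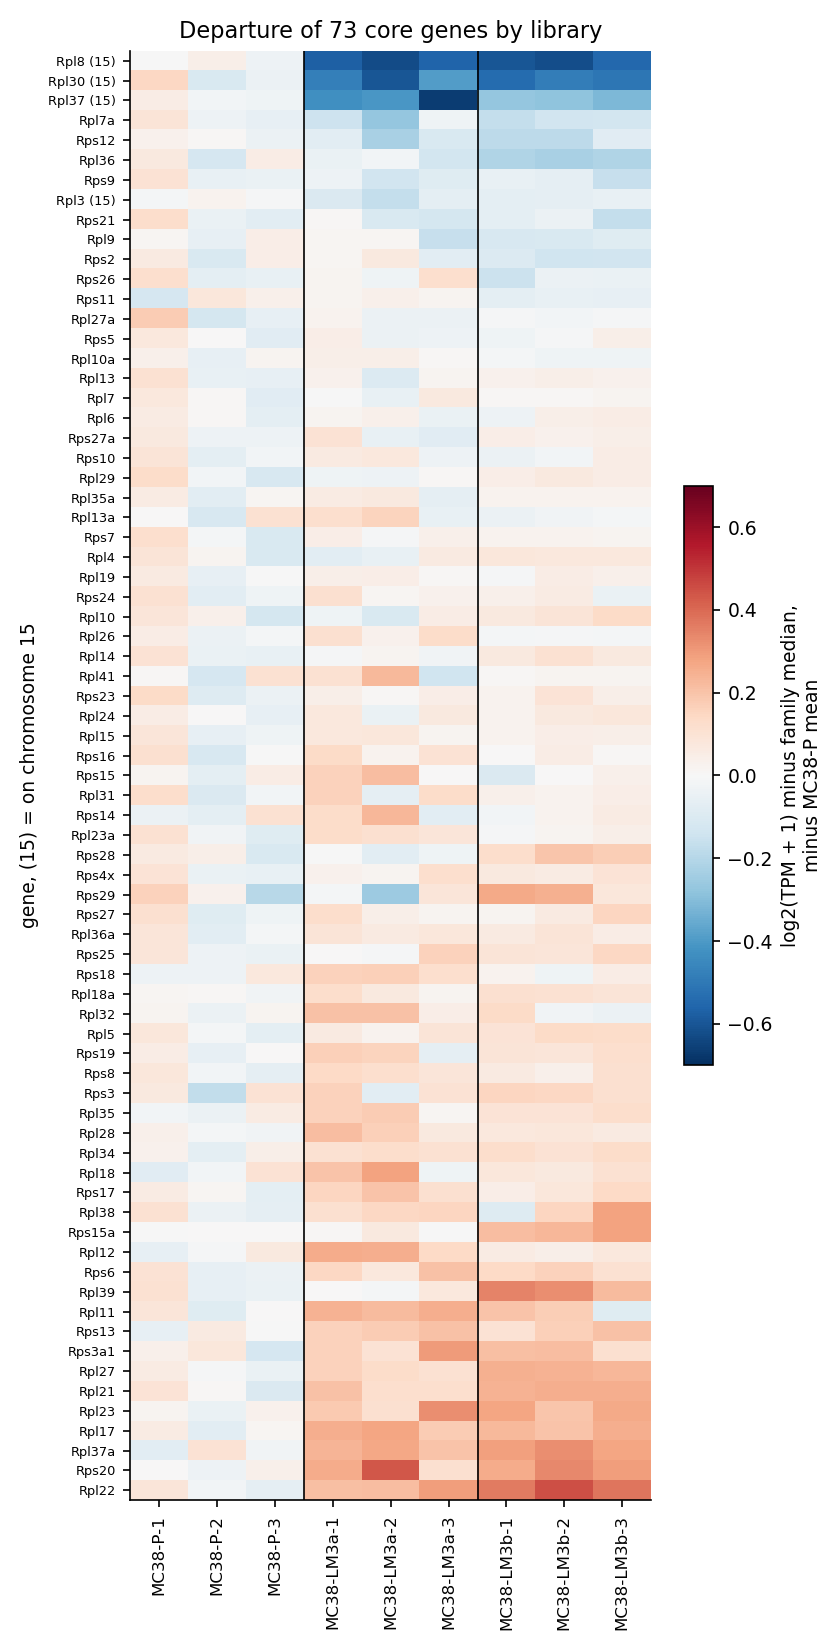
Departure of each of the 73 core genes (rows, ordered by their mean departure in the derivatives) in the 9 libraries (columns): log2(TPM + 1) minus the family median of that library, minus the gene's mean in MC38-P. Blue is below and red above, on a scale from -0.7 to 0.7, and (15) marks genes on chromosome 15. Rpl8, Rpl30 and Rpl37 form the dark blue rows in all 6 derivative libraries, and Rpl22 and Rps20 are the reddest.

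Of the 6 kept paralogs and retrogene copies, 2 fell in both derivatives, Rpl22l1 and Rpl7l1, and 0 rose, beside 13.8% and 11.2% of all tested genes that fell. Rpl22l1 encodes a protein that can replace Rpl22 in the ribosome, and Rpl22 is known to hold down Rpl22l1 expression. Rpl22l1 was at 801, 814 and 934 TPM in MC38-P, at 530, 530 and 482 TPM in MC38-LM3a and at 470, 496 and 489 TPM in MC38-LM3b. All derivative libraries lay well below the parental ones. It fell by 0.72 (SE 0.07, limma adjusted p = 3.97e-05) and by 0.81 (SE 0.07, adjusted p = 1.51e-05), and it lies on chromosome 3.

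The proportion of the pair shifted. Rpl22l1 made up 83.8% ± 0.362 of the summed TPM of Rpl22l1 and Rpl22 in the parental cells, and 73.3% ± 0.470 (MC38-LM3a) and 73.3% ± 0.409 (MC38-LM3b) in the derivatives (SD, n = 3). The 6 derivative libraries differed from the 3 parental ones by -10.5 percentage points (exact permutation p = 0.0119, the smallest possible, 0.143 adjusted over 12 comparisons of paralog shares). Here too the p covers the spread between cultures of these lines and not between separate selections. Between the derivatives the difference was -0.0363 points (exact p = 1), and it stayed within -0.304 and 0.139 points when single libraries were left out. The shares ran from 83.5% to 84.2% in MC38-P, from 72.8% to 73.7% in MC38-LM3a and from 72.9% to 73.7% in MC38-LM3b, so the parental and derivative libraries did not overlap.

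Rpl7l1, which acts in nucleolar assembly of the large subunit, was at 161, 166 and 161 TPM in MC38-P, at 127, 138 and 133 TPM in MC38-LM3a and at 129, 128 and 128 TPM in MC38-LM3b. It fell by 0.30 (SE 0.06, limma adjusted p = 0.00281) and by 0.34 (SE 0.06, adjusted p = 0.00086) and did not depart from the family median beyond the threshold. Rps27l, a p53 target, took 16.2% ± 0.631, 17.1% ± 1.40 and 17.9% ± 0.236 of the TPM it shares with Rps27, and Rpl36al took 39.7% ± 0.692, 40.5% ± 2.08 and 42.0% ± 0.612 of the TPM it shares with Rpl36a (MC38-P, MC38-LM3a, MC38-LM3b; SD, n = 3). For both pairs the MC38-LM3b shares lay above those of MC38-P (exact permutation p = 0.1, the smallest possible), and MC38-LM3a overlapped both. Rpl37rt stayed between 2.77 and 8.02 TPM, and Rps27rt was listed at 0 in 5 libraries and at 3.53 to 4.20 TPM in the others. Of the 3 pseudogenes, 0 were called in MC38-LM3a (0 at an unadjusted limma p under 0.05), beside 28% of all tested genes. In MC38-LM3b 2 fell, beside 11.2% of all tested genes. These were Rps15a-ps5, by 0.46 (SE 0.10, limma adjusted p = 0.00483), and Rpl13-ps6, by 0.87 (SE 0.32, adjusted p = 0.0472). The latter is a gene near the filter, at 1.26, 1.79 and 1.08 TPM in MC38-P and at 1.13, 0 and 0 TPM in MC38-LM3b, so the groups overlap. It passed the filter through its MC38-P libraries, where it is high, so its call depends in part on the filter. Rpl32l ranged from 35.7 to 61.6 TPM and was not called.

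Promoter windows of members were read from the RefSeq table of build GRCm38.p6, which holds 64 entries for 54 of the 73 core genes, and all 6 paralogs. The build differs from the GRCm39 named in the submitters' processing notes, so positions apply to GRCm38.p6 only. The window runs from 40 bases before the listed start to 20 bases after it, on the gene's strand. The sequences below are those of Rpl37 and Rpl7a (which fell), of the pair Rpl22l1 and Rpl22, and of the abundant Rps27. Those of Rpl37a and Rpl39 (upward departures) and of Rps12 (a downward departure) are given too. Rpl39 and Rps12 were called as departures in MC38-LM3b only. The longest run of pyrimidines is in capitals.
Rpl37, chr15:5116573-5116632, plus strand: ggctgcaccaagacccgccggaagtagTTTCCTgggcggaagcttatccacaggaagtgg
Rpl7a, chr2:26910767-26910826, plus strand: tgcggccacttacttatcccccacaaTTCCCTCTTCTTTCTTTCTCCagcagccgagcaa
Rpl22l1, chr3:28805468-28805527, plus strand: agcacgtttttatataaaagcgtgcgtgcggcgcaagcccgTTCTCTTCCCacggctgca
Rpl22, chr4:152325686-152325745, plus strand: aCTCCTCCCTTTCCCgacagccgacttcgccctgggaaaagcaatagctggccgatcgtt
Rpl37a, chr1:72711220-72711279, plus strand: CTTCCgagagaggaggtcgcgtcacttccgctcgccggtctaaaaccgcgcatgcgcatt
Rpl39, chrX:37085203-37085262, minus strand: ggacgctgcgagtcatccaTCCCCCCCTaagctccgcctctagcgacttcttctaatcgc
Rps12, chr10:23787190-23787249, minus strand: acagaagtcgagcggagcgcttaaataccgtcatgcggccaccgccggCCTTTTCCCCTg
Rps27, chr3:90213629-90213688, minus strand: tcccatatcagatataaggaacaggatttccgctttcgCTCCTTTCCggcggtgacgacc

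Long pyrimidine runs were found both in genes that fell (21 bases in Rpl7a, 10 in Rpl22l1) and in genes that departed upwards in MC38-LM3b (14 in Rpl22, 9 in Rpl39). Short runs were found in both too, 6 in Rpl37, 5 in Rpl37a and 5 in a second entry of Rpl22. A run of at least 8 pyrimidines lay on the gene's strand in 35 of the 64 core entries (54.7%) and in 24.2% of all 32851 entries of the same length. On the other strand the shares were 17.2% and 25.5%. The letters CTTTC lay on the gene's strand in 31.2% of core entries against 8.11% of all (7.81% and 7.21% on the other strand), and CTTCC in 29.7% against 12.8% (23.4% and 14% on the other strand). The motifs can share the base at their ends, and both were present in 10.9% of core entries and 1.38% of all. These are matches of letters and not mapped starts of transcripts.

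Of the 10 kept matches that encode no ribosomal protein, 3 fell in both derivatives and 2 rose in MC38-LM3b, beside 13.8% and 11.2% of all genes that fell and 35.6% that rose in MC38-LM3b. Rps19bp1, an activator of Sirt1 that binds Rps19, was at 116, 136 and 152 TPM in MC38-P, at 71.6, 88.8 and 74.7 TPM in MC38-LM3a and at 64.0, 68.2 and 69.4 TPM in MC38-LM3b. It fell by 0.78 (SE 0.11, limma adjusted p = 0.000432) and 0.99 (SE 0.11, adjusted p = 7.07e-05), and it too lies on chromosome 15. Rps6ka6 (Rsk4), an X-linked member of the ribosomal S6 kinases that act below ERK, fell from 21.8 to 25.4 TPM in MC38-P to 13.6 to 16.3 TPM in the derivatives, by 0.69 (SE 0.10, adjusted p = 0.000455) and 0.58 (SE 0.10, adjusted p = 0.000896). Rps6ka1 fell by 0.27 in both (adjusted p = 0.0357 and 0.0224), calls lost under 9 and 6 of 20 alternatives. In MC38-LM3b, Rps6ka3 rose by 0.54 (limma adjusted p = 0.0236, lost under 5 of 20 alternatives) and Rps6ka4 by 0.39 (adjusted p = 0.0057). Over the 20 alternatives their smallest rises were 0.23 and 0.17 in that order. The S6 kinases of the mTORC1 pathway, Rps6kb1 and Rps6kb2, gave -0.13 and 0.05 in MC38-LM3a and 0.16 and 0.26 in MC38-LM3b, and neither was called. Their transcripts are long (median 4065 bases in this group), so they lie on the other side of the length trend from the ribosomal proteins.

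The 6 ribosomal genes given from outside the symbol pattern moved with the core. In MC38-LM3a 0 were called by limma (0 at an unadjusted p under 0.05 too), and 5 fell in MC38-LM3b, with a median of -0.26 over the 6, where 11.2% of all genes fell. Of the 20 alternatives, the calls were lost or turned under 13 for Rplp2, 10 for Rack1, 8 for Rpsa, 7 for Rplp1 and 1 for Rplp0. Rplp1, an acidic protein of the stalk that recruits translation factors, ranged from 3850 to 5455 TPM in MC38-P, from 3650 to 4899 TPM in MC38-LM3a and from 3342 to 3472 TPM in MC38-LM3b, where it fell by 0.41 (adjusted p = 0.0247). Fau, whose protein is made as a fusion with a ubiquitin-like protein, gave -0.17 in MC38-LM3b (limma adjusted p = 0.295) and did not pass. Of the 17 core genes mutated in Diamond-Blackfan anaemia, 0 were called in MC38-LM3a (0 at an unadjusted limma p under 0.05) and 7 fell in MC38-LM3b, with medians of 0.01 and -0.21, beside 37 of all 73 core genes and 11.2% of all genes that fell there. Rps26, which contacts the mRNA upstream of the start codon, had the largest fall among them, 0.37 (SE 0.07, limma adjusted p = 0.00138). Rpl5, Rpl11 and Rpl23, which can bind Mdm2 and thereby stabilise p53, gave 0.00, 0.19 and 0.15 in MC38-LM3a and -0.17, -0.19 and -0.04 in MC38-LM3b. None of the 3 was called by limma in either, with 1 at an unadjusted p under 0.05 in MC38-LM3b.

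The genes that build and feed the ribosome were counted from lists, beside 13.8% of all tested genes that fell in MC38-LM3a, and 11.2% for MC38-LM3b (25.5% and 29.1% with the GC and length correction). Of 44 ribosome assembly factors, 29 fell and 1 rose in MC38-LM3a, and 26 fell and 1 rose in MC38-LM3b, with medians of -0.35 and -0.25. With the correction 36 and 39 fell (medians -0.35 and -0.49). Relative to the core median, 5 and 3 departed downwards as deposited (3.43% and 2.2% of all genes did), and 20 and 21 with the correction (9.61% and 6.75%). Bop1, part of the PeBoW complex that matures the 60S subunit, was at 167, 176 and 172 TPM in MC38-P, at 83.4, 94.6 and 91.8 TPM in MC38-LM3a and at 89.8, 88.9 and 87.5 TPM in MC38-LM3b. It fell by 0.93 (SE 0.06, limma adjusted p = 4.53e-06) and 0.94 (SE 0.06, adjusted p = 2.76e-06), and it lies on chromosome 15. Sbds, which helps to release eIF6 from the 60S subunit, was the 1 that rose, by 0.29 (adjusted p = 0.00983) and 0.34 (adjusted p = 0.00275).

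Of 11 tested genes of RNA polymerase I and its factors, which make the ribosomal RNA, 5 fell in MC38-LM3a and 4 in MC38-LM3b, with Polr1b at -0.62 in the former (limma adjusted p = 0.00199) and Polr1c at -0.46 in the latter (adjusted p = 0.00101), and with the correction 8 fell in each. Among 15 translation factors with a TOP tract, 9 fell in each derivative and 0 rose, and 6 of the 9 in each lie on chromosome 15, where 316 and 222 of the 464 tested genes fell. With the correction 10 and 13 of the 15 fell, and the medians moved from -0.36 and -0.26 to -0.39 and -0.45. Pabpc1, the poly(A)-binding protein, fell by 0.68 in MC38-LM3a (adjusted p = 0.00184), and Eef1d, a subunit of the elongation factor exchange complex, by 0.63 in MC38-LM3b (adjusted p = 0.000117), and both lie on chromosome 15. Eef1a1, which brings aminoacyl-tRNA to the ribosome, gave 0.12 and -0.03 and was not called. Of 15 tested mTORC1 and TOP regulators, 2 fell in MC38-LM3a, and 2 fell and 2 rose in MC38-LM3b, with medians of -0.13 and 0.12. The correction gave 7 and 6 that fell, and the second median turned to -0.12. Larp4, also on chromosome 15, fell by 0.82 in MC38-LM3a (limma adjusted p = 0.00187), Akt1s1 (Pras40) fell by 0.53 in MC38-LM3b (adjusted p = 0.000599) and Tsc2 rose there by 0.44 (adjusted p = 0.0313). With the correction the highest value of this list in MC38-LM3b was 0.135, so Tsc2 lay at or below that. Of the 78 mitochondrial ribosomal protein genes, 21 fell and 3 rose in MC38-LM3a, and 34 fell and 2 rose in MC38-LM3b, with medians of -0.10 and -0.20. In either direction 24 and 36 of the 78 were called, beside 28% and 46.7% of all tested genes. With the correction 27 and 50 of them fell and 5 rose in each, with medians of -0.14 and -0.31.

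**Figure D5:**
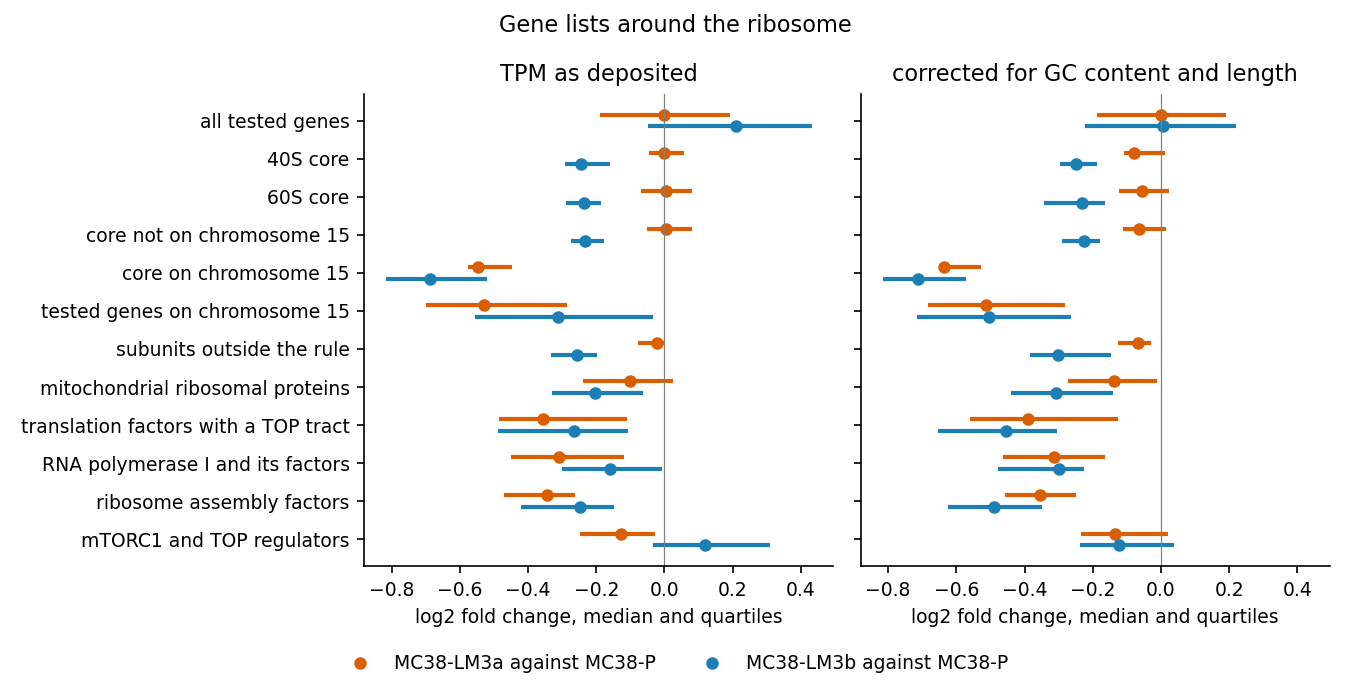
Median (point) and quartiles (line) of the log2 fold change against MC38-P (horizontal axis) for gene lists around the ribosome (vertical axis), as deposited (left) and after correction for GC content and length (right), for MC38-LM3a (orange) and MC38-LM3b (blue). Assembly factors have medians of -0.35 and -0.25 as deposited, and the 40S and 60S core genes lie near 0 in MC38-LM3a and near -0.24 in MC38-LM3b.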

How the data were processed

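Cultures of the parental line and both derivatives were profiled in 3 replicates each. Poly(A) RNA was sequenced on the DNBSEQ platform. The authors deposited TPM per gene, rounded to 2 decimals and scaled to about the same total in every library, for 16399 genes with NCBI Gene numbers and symbols. HISAT and GRCm39 are named in the submitters' processing notes. The quantification tool and annotation are not given in the sources used here. Counts were not used here, so depth is unknown, a count model could not be used, and the number of libraries limits precision.

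The 11287 genes that reached 1 TPM in 3 or more libraries entered limma 3.58.1 (R 4.3.3) on log2(TPM + 1), a pseudocount of 1, with 1 model of 3 group means, trended variance and Benjamini-Hochberg adjustment. Departures used the same fit after subtraction of each library's core median. Shares and ratios were compared by two-sided exact permutation tests. Transcript lengths, GC content and chromosomes came from the GRCm38 annotation (98.3% of tested genes). The correction was a loess fit per library with a span of 0.3. The fits were tested on simulated data for 11287 genes: of 100 genes changed by 0.5 on the log2 scale, 39 were recovered in MC38-LM3a against MC38-P and 43 in MC38-LM3b against MC38-P as deposited (7 and 5 false calls), and 29 and 30 in the fit of departures (9 and 4 false calls). The simulated noise was independent between genes and held no deviation shared across a library, such as that along transcript length. These counts therefore check the code and do not measure the error rate in the real libraries.

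Named genes were the 5 highest and 5 lowest core genes by mean TPM, up to 5 largest departures on each side, up to 3 between the derivatives, the core genes on chromosome 15, all kept paralogs and non-ribosomal matches, the ribosomal genes outside the pattern, and the largest rise and fall of each list among called genes. Other members appear only in counts or were named after their values were seen (Rpl36, Rpl12, Rpl5, Rpl11, Rps15a-ps5 and Rpl32l). Members and lists were chosen with earlier results of these data known. Alternatives changed the pseudocount, filter, groups in the model, replicate block, normalization, variance prior, family median and libraries used.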

Additional observations from a re-analysis of the deposited data

How the results depend on the processing

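The falls of Rpl8, Rpl30, Rpl37 and Rpl22l1 kept their direction and stayed called in both derivatives under all 20 alternatives to the fit as deposited. Counts were less stable. In brackets stand the shares of all tested genes called in the same fit. Core genes called in MC38-LM3a numbered 4 in the report (28.0%). They became 11 with the correction for GC content and length (51.6%) and 9 with the replicate block and that correction (47.7%). Quantile normalization gave 10 (42.0%), of which 3 were higher and 7 lower. Without MC38-P replicate 3 and MC38-LM3a replicate 3, an alternative chosen after seeing the data, 52 (63.6%) were called there and 70 (71.7%) between the derivatives. In MC38-LM3b 37 were called (46.7%). The counts there were 20 with the replicate block (34.5%), 24 with quantile normalization (50.5%) and 24 with a single prior variance (45.3%). Departures in MC38-LM3a numbered 6 (8.12%). They became 3 with only the compared groups (4.07%), 3 with the replicate block (3.92%) and 1 with a single prior (7.19%). With the correction they became 16 (36.7%), with quantile normalization 15 (41.3%) and with the block and the correction 12 (30.0%). Without those 2 libraries they became 26 (59.9%). In MC38-LM3b 16 departed (51.5%). They became 10 with the block (33.2%), 25 with the correction (64.7%) and 3 with a single prior (49.0%). Between the derivatives 0 departed (0.0266%). This became 8 with only the compared groups (43.7%) and 21 without the 2 libraries (91.8%). Quantile normalization turned the 11 upward and 5 downward departures of MC38-LM3b to 5 and 11, and centring on the family's deviations, added after seeing the data, to 7 and 11.

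Leaving out each library in turn gave 3 to 18 core genes called in MC38-LM3a, 18 to 55 in MC38-LM3b and 0 to 67 between them (departures 3 to 17, 7 to 21 and 0 to 14). Of all tested genes, 18.6% to 37.4%, 33.0% to 59.0% and 0% to 56.4% were called in the same order. The shares that departed were 3.18% to 15.9%, 28.2% to 67.7% and 0% to 78.0%. The highest count of core genes in each came without MC38-LM3a replicate 3, except the 21 departures of MC38-LM3b (without MC38-P replicate 1). The 18 calls of MC38-LM3b came without MC38-P replicate 3 or MC38-LM3b replicate 1 or 2, its 7 departures without MC38-LM3b replicate 2, and the 3 departures of MC38-LM3a without MC38-P replicate 2 or MC38-LM3a replicate 1 or 2. Share differences ran from -1.01 to 1.11 points (MC38-LM3a), -4.60 to -2.78 (MC38-LM3b) and -4.97 to -2.85 (between them). Without the 2 libraries the first was 2.19, and with the correction the others were -2.15 and -1.39. The log2 ratio of 60S to 40S in MC38-LM3b moved to 0.092 with medians in place of sums and to -0.031 with the correction, and between the derivatives to 0.12 and -0.014. Single genes that turned: Rps6kb1 in MC38-LM3b to -0.15 with the correction, with or without the block, Rplp2 there to 0.034 and the Rps6ka1 departure there to -0.42 with quantile normalization, and, without the 2 libraries in MC38-LM3a, Rps2 to 0.18, Rps15a to 0.15, Rplp1 to 0.23, Rack1 to 0.13, and the departures of Rps6ka2 to -0.37 and Rps6kc1 to -0.31. The causes were not tested.

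Same-numbered replicates did not deviate together (r from -0.66 to 0.07 over 9 pairs), so the replicate block pairs libraries that share only a number. Count models on DESeq2 or edgeR were not run, since the TPM do not give whole reads. With unknown depth, differences between low genes cannot be weighed against counting error.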
